A study of Mus musculus with 18 samples.

Results

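The mouse gene Ncor1 carried 136 distinct listed 5-methylcytosine (m5C) sites, out of 18281 in exons of protein-coding transcripts and 25890 in all. They were found as every listed cytosine that lies, on the strand of the gene, in an exon of any of the 53 RefSeq transcripts of Ncor1 on chromosome 11 (mm10, chr11:62315663-62457414, minus strand). Ncor1 was chosen by the number of sites listed in it in these libraries, so its counts, positions and scores are given below as a description and without a test.

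The measurement was RNA bisulfite sequencing, in which unmethylated cytosines are converted and m5C is read as a remaining cytosine. It was made in 9 libraries of RNA labelled as that of cultured neurons, from the cerebral cortex of C57BL/6 mouse embryos at day 18 of gestation. The control group was set against neurons held without glucose under hypoxia for 1.5 h or 3 h and then returned to normal medium and incubation for 24 h (oxygen-glucose deprivation and reoxygenation, OGD/R 1.5 h and OGD/R 3 h). Each group had 3 libraries, which are described as replicates of a sequencing pool. Where coverage was held, in control and in the longer OGD/R group, libraries of a group differed by less than the sampling noise. The libraries of each group were therefore counted as 1 sample, and a difference between groups has no replicate check.

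The protein encoded by Ncor1 is a large corepressor that nuclear receptors, such as the thyroid hormone and retinoic acid receptors, bind when they hold no ligand. It is the scaffold of a complex with the histone deacetylase Hdac3, the WD-repeat proteins Tbl1x and Tbl1xr1 and the small subunit Gps2, which removes acetyl groups from histones at repressed genes. In mRNA, m5C is placed by RNA methyltransferases of the NSUN family, of which Nsun2 is known to act on cytosines followed by guanines.

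A library held 5423 to 7772 listed sites, of which 3544 to 5302 lay in mRNA exons. The depth in reads is unknown. Each site comes with a score, a whole number from 0 to 1000 that grows with the coverage and the methylation level together, so no level can be given for a site. Sites were counted in marker genes of the labelled cell type and of others, which is a count of m5C listings and not of expression. Over all 21774 protein-coding genes, 12.1% had a site in any library, and at that share a short list can hold none. By group the shares were 8.42% in control, 8.09% in OGD/R 1.5 h and 6.71% in OGD/R 3 h. None of the 14 neuron markers, among them Tubb3, Map2, Rbfox3 and Snap25, had a listed site in any library, while all 14 markers of intestinal epithelium, among them Vil1, Epcam and Krt20, had at least 1. The summed sites of the intestinal list ranged over 81 to 97 per library in control, 54 to 59 in OGD/R 1.5 h and 176 to 187 in OGD/R 3 h. Smooth muscle markers had sites in 4 of 5 genes, with 7 to 15, 8 to 10 and 8 to 11 sites per library. The astrocyte list had 1 of 4 genes with a site and at most 1 site per library. Erythroid markers (2 of 6 genes, 31 sites per library) and neutrophil and bone marrow markers (3 of 6 genes, 21 sites per library) had sites in OGD/R 3 h alone and 0 in the other groups. The part of these differences in the Ncor1 values was not tested. In such bulk RNA, fewer cells of a type and less RNA per cell cannot be told apart.

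The 5 Ncor1 cytosines with the highest mean score over the 9 libraries lay in exons 9, 19, 25 and 31 of the reference transcript NM_001252313.1. They are shown as the strongest by that measure, with 10 nt on either side in the genome (mm10, minus strand, read 5′ to 3′) and the listed cytosine in capitals.
Exon 19, chr11:62373173-62373193: gagatgaagaCgtggtagtgg
Exon 31, chr11:62340521-62340541: cggggtggatCccgtcgtgag
Exon 25, chr11:62353321-62353341: cattcaggcaCtgcaggggct
Exon 19, chr11:62373215-62373235: aggaaagagaCttggagagca
Exon 9, chr11:62398412-62398432: aaaaatctgcCagcgctatga
The cytosine at 62373183 in exon 19 had scores of 65, 74 and 175 in control, was not listed in OGD/R 1.5 h, and had 8 and 35 in replicates 2 and 3 of OGD/R 3 h. At 62340531 in exon 31 the scores were 44, 36 and 121 in control and 20 and 8 in replicates 2 and 3 of OGD/R 1.5 h, with no listing in OGD/R 3 h. At 62353331 in exon 25 they were 11, 38 and 110 in control and 7, 1 and 41 in OGD/R 1.5 h, again with no listing in OGD/R 3 h. Each of these sites was thus listed in all 3 control libraries, and their highest score was a control score. The site at 62373225 in exon 19 was listed in the control libraries only, at 56, 110 and 25. The last of the 5, at 62398422, was the sole site of exon 9 and rested on 1 library, control replicate 1, with a score of 150.

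A further set is shown of cytosines that recurred in most libraries or changed most among the sites listed in every group. The site of exon 26, not listed in OGD/R 3 h, is added for its fall from control to OGD/R 1.5 h.
Exon 15, chr11:62383319-62383339: agcagaagaaCctgaagaaag
Exon 25, chr11:62353312-62353332: actgcaggggCtgtccaagaa
Exon 31, chr11:62340475-62340495: aggagtagcgCtgcaggagag
Exon 19, chr11:62373378-62373398: agcgccagtgCtgagaccgca
Exon 19, chr11:62373078-62373098: gatggagagcCagagaggcag
Exon 26, chr11:62351438-62351458: ctgagaaggtCagagaggaag
No Ncor1 site was listed in all 9 libraries or in 8 of them. The 2 sites listed in 7 were those at 62383329 in exon 15 and 62353322 in exon 25. The former had scores of 16 and 4 in control replicates 1 and 3, of 4 and 16 in replicates 1 and 2 of OGD/R 1.5 h, and of 2, 9 and 12 in OGD/R 3 h. The latter had 0 and 0 in control replicates 1 and 2, then 2, 9 and 1 in OGD/R 1.5 h, and 2 and 3 in replicates 2 and 3 of OGD/R 3 h. At neither cytosine did a score pass 16.

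All 136 sites lay in exons of the reference transcript and all lay in its coding sequence. None was listed in the 5′ untranslated region, in the 3′ untranslated region or within 100 nt of the start or stop codon. Of all mRNA sites, 54.8% were in the coding sequence away from the codon regions, 24.1% around the start codon, 7.94% in the 5′ untranslated region, 5.96% around the stop codon and 7.23% in the 3′ untranslated region. The untranslated regions of Ncor1 had 14 and 263 cytosines to the 1863 of its coding sequence. Nothing was listed in its introns or on the opposite strand of the locus, and no site overlapped an exon of another gene.

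Within the coding sequence of 7365 nt, the sites spanned codons 310 to 1564 of 2455, a stretch of 3763 nt on the mRNA. Sites were found in 15 of the 45 exons. Exons 1 to 8, with 234 cytosines, and exons 32 to 45, with 999 cytosines, held none, and 8 of the exons between 9 and 31, with 202 cytosines, held none either. The 15 exons with a site had 705 cytosines.

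**Figure D1:**
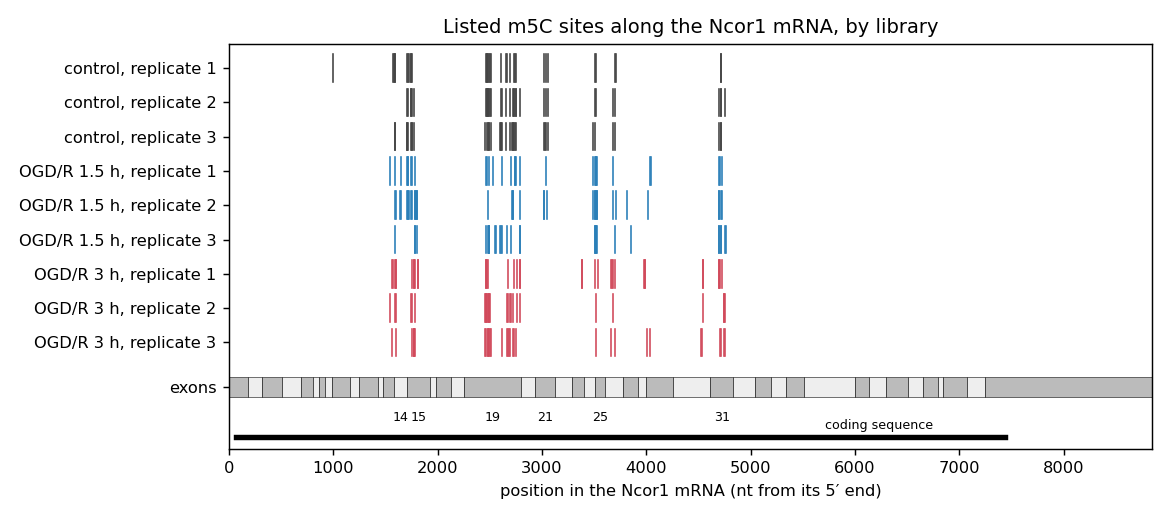
Listed sites (vertical ticks) along the 8852 nt of the Ncor1 mRNA, with the position in nt from its 5′ end on the x axis and a row for each library. The bar below shows the 45 exons in alternating shades and the coding sequence as a black line, and in every library the ticks fall between exons 9 and 31.

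Exon 19 (chr11:62373076-62373622) held 47 sites, 34.6% of all Ncor1 sites, while it has 6.50% of the cytosines of the mRNA. The sites were packed in its 3′ part. The first 59 cytosines of the exon had none, and from the first to the last site, at nt 203 and 535 of the exon, 47 of 79 cytosines were listed in some library. Exon 15 (chr11:62383161-62383375) followed with 19 of 67 cytosines, exon 31 (chr11:62340408-62340629) with 14 of 67, and exon 14 (chr11:62384718-62384842) with 11 of its 13 cytosines. These 4 exons held 91 sites, 66.9% of the total.

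Over the 3 libraries of a group, exon 19 led in each group. Control had 29 sites there, OGD/R 1.5 h had 24 and OGD/R 3 h had 25. Single libraries listed 14, 18 and 18 there in control, 10, 5 and 14 after 1.5 h of OGD/R and 9, 15 and 15 in OGD/R 3 h, so the groups overlapped. In replicate 2 of OGD/R 1.5 h, exon 15 led instead, with 10 sites. Sites lay in 10 exons in control and in 11 in either OGD/R group, and 7 exons had sites in all 3 groups.

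Some other exons, picked here after their values were seen, were uneven between the groups. Exon 21 had 3, 3 and 4 sites in the control libraries, 1, 3 and 0 in OGD/R 1.5 h and none in OGD/R 3 h. In exon 30, only OGD/R 3 h had sites, with 2, 1 and 2 in its libraries. In exon 25, control libraries had 2, 2 and 1 sites, OGD/R 1.5 h had 4, 5 and 5 and OGD/R 3 h had 2, 1 and 1. The sites of exons 23 and 28 came from replicate 1 of OGD/R 3 h alone, and those of exon 27 from OGD/R 1.5 h alone, 1 each in replicates 2 and 3.

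**Figure D2:**
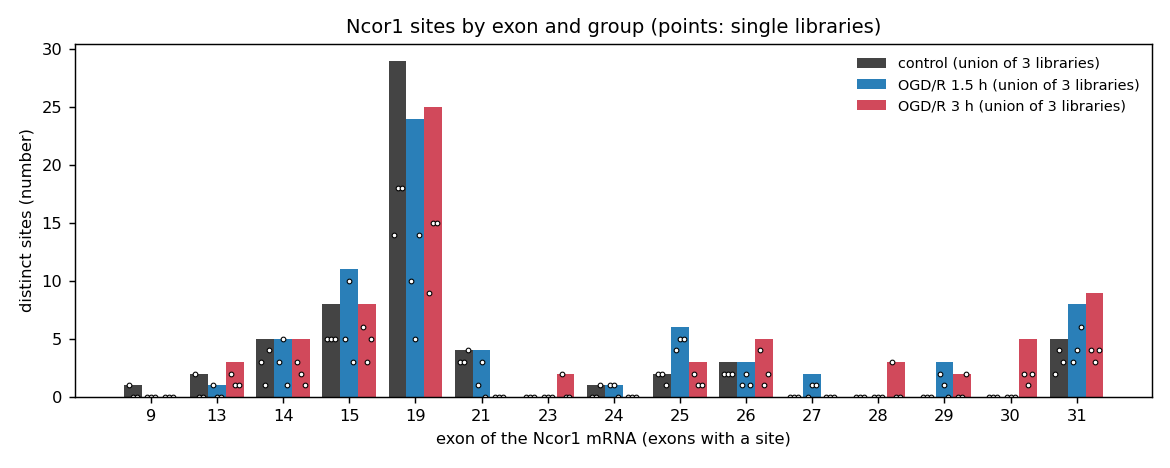
Number of distinct Ncor1 sites (y axis) in each of the 15 exons with a site (x axis), with bars for sites listed in any of the 3 libraries and points for the single libraries. The bar of exon 19 is highest in every group, exon 21 has no bar in OGD/R 3 h and exon 30 has a bar in OGD/R 3 h only.

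When the 9 libraries were pooled, listed cytosines lay close together. With gaps of at most 10 nt, the 136 sites fell into 37 runs, of which 11 were single sites and 9 held 5 or more sites, 83 sites in all. The largest run had 16 of the 17 cytosines in the 55 nt of chr11:62373366-62373420 in exon 19. In 22 cases the listed cytosines were adjacent bases. Runs and adjacent bases were counted over all libraries, so their sites need not share a library. Within a library, 21.6% to 61.3% of the Ncor1 sites had no other listed site within 10 nt. For all mRNA sites it was 48.1% to 60.6%, so the ranges overlapped.

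The positions differed between libraries more than the regions did. Of the 136 sites, 61 (44.9%) were listed in a single library and 75 in more than 1 library. The share in a single library was 49.1% over all mRNA sites. In control, 15 of the 60 sites (25.0%) were listed in all 3 libraries, beside 26.4% of all mRNA sites of that group. In OGD/R 1.5 h it was 7 of 68 (10.3%), beside 17.8%, and in OGD/R 3 h 3 of 70 (4.29%), beside 30.7%. Of the control sites with a highest score of at least 10, 12 of 22 were in all 3 libraries, to 5 of 28 in OGD/R 1.5 h and 2 of 10 in OGD/R 3 h. Below that score the counts were 3 of 38, 2 of 40 and 1 of 60. The corresponding shares over all mRNA sites were 38.1%, 29.8% and 42.5% at or above the score and 12.2%, 6.85% and 14.1% below it. A site listed in more libraries had more chances to reach a score of 10. The contrast between the score bands is therefore partly built in, and no conclusion is drawn from it. The 3 sites found in every OGD/R 3 h library were at 62383329 and 62383305 in exon 15 and at 62373202 in exon 19, and the second of them had scores of 35, 0 and 0.

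**Figure D3:**
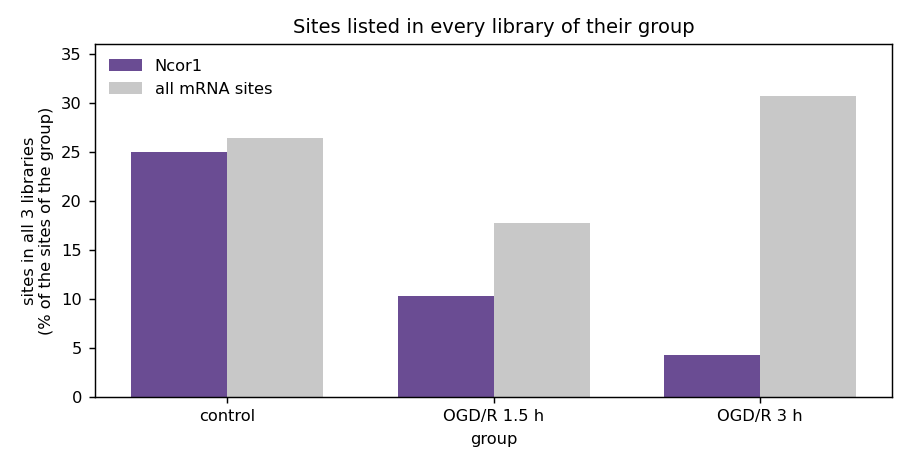
Share of the sites of a group that were listed in all 3 of its libraries (y axis, percent), for Ncor1 and for all mRNA sites, by group (x axis). The Ncor1 bar is close to that of all mRNA sites in control, at 25.0% and 26.4%, and far below it in OGD/R 3 h, at 4.29% and 30.7%.

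Pairs of libraries of the same group shared 12.3% to 46.0% of the Ncor1 sites listed in either, with a median of 22.4%, and pairs from different groups 5.63% to 19.3%, with a median of 12.1%. For all mRNA sites the ranges were 29.6% to 45.1% and 6.60% to 10.8%. By group, the control pairs shared 33.3% to 46.0%, the OGD/R 1.5 h pairs 19.3% to 30.8% and the OGD/R 3 h pairs 12.3% to 22.4%. The control pairs thus lay above every pair from different groups, while the OGD/R 3 h pairs overlapped with such pairs. For all mRNA sites, control pairs shared 39.9% to 40.8% and OGD/R 1.5 h pairs 29.6% to 30.4%. The OGD/R 3 h pairs shared 42.6% to 45.1% there. Both sets of sites thus had lower shares in OGD/R 1.5 h than in control, and only Ncor1 had its lowest in OGD/R 3 h.

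The number of Ncor1 sites was similar in the 3 groups. Control libraries listed 34, 35 and 38 sites, OGD/R 1.5 h libraries 31, 37 and 31, and OGD/R 3 h libraries 37, 27 and 33, so all groups overlapped. Over all genes with a site in either group, the numbers of the libraries did not overlap in 23.7% of genes for OGD/R 1.5 h against control, 37.1% for OGD/R 3 h against control and 32.9% for OGD/R 3 h against OGD/R 1.5 h. Ncor1 ranked 2, 1 and 1 among genes by number of sites in the control libraries, 2, 1 and 2 in OGD/R 1.5 h, and 9, 17 and 9 in OGD/R 3 h. As a share of the mRNA sites of a library, it had 0.858%, 0.833% and 0.985% in control and 0.875%, 1.03% and 0.820% in OGD/R 1.5 h. In OGD/R 3 h, where the libraries listed more mRNA sites, the shares were 0.698%, 0.566% and 0.690%, below every library of the other groups. Such a split, with all OGD/R 3 h shares the lower, was found in 24.3% of genes against control and 20.1% against OGD/R 1.5 h.

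The unions over libraries were 60, 68 and 70 sites. The control and 1.5 h groups had 25 sites in common, 41.7% of the control and 36.8% of the OGD/R 1.5 h sites, against 27.3% and 26.4% for all mRNA sites. Those of control and 3 h had 22 in common, 36.7% and 31.4%, against 20.5% and 17.0%. The 25 sites common to the OGD/R groups were 36.8% and 35.7%, against 21.5% and 18.4%. These comparisons use the same libraries more than once. Sites listed in control alone numbered 23 (16.9%), in OGD/R 1.5 h alone 28 (20.6%) and in OGD/R 3 h alone 33 (24.3%), and 10 sites (7.35%) were listed in every group. The corresponding shares of all mRNA sites were 23.5%, 24.0%, 33.2% and 3.68%. Of the 84 sites of a single group, 36 (42.9%) lay within 3 nt of a site of another group, where the share was 18.1% over all mRNA sites, and 55 (65.5%) within 10 nt, where it was 37.7%. By group, 17 of 23 control sites (73.9%), 11 of 28 OGD/R 1.5 h sites (39.3%) and 8 of 33 OGD/R 3 h sites (24.2%) had such a neighbour within 3 nt. Over all mRNA sites these shares were 20.2%, 20.5% and 14.8%, so OGD/R 3 h was lowest there too. Since Ncor1 was chosen by its number of listed sites, the contrast of these shares with all mRNA sites is no test.

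Scores were lowest in OGD/R 3 h. The median score of the Ncor1 sites was 5, 5 and 4 in the control libraries, 4, 7 and 7 in OGD/R 1.5 h and 2, 3 and 2 in OGD/R 3 h. The mean of log2(score + 1) was 2.94, 2.93 and 2.78 in control, 2.73, 2.76 and 2.89 after 1.5 h of OGD/R and 1.56, 1.62 and 1.80 in OGD/R 3 h. All OGD/R 3 h libraries lay below all libraries of the other groups, while control and OGD/R 1.5 h overlapped. The highest score of a library was 110 to 175 in control, 63 to 98 in OGD/R 1.5 h and 17 to 35 in OGD/R 3 h, and sites with a score of 0 numbered 2 to 5, 1 to 4 and 7 to 10.

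Over all mRNA sites the scores of OGD/R 3 h were not lower, with medians of 9 to 10 in control, 7 in OGD/R 1.5 h and 11 to 12 in OGD/R 3 h. Sites with a score of at least 10 made up 41.2%, 28.6% and 28.9% of those of Ncor1 in the control libraries, 29.0%, 29.7% and 41.9% after 1.5 h and 10.8%, 7.41% and 12.1% after 3 h of OGD/R. In numbers these were 14, 10 and 11 sites, then 9, 11 and 13, and 4, 2 and 4, so that every OGD/R 3 h library had fewer than any library of the other groups. With the libraries of a group counted as 1 sample, this split has no replicate check. Genes with a mean of at least 5 such sites were also counted, a limit set after the values were seen. The split held for 2.35% of 85 against control, Ncor1 and Iqgap2, and for 1.20% of 83 against OGD/R 1.5 h, Ncor1 alone. The mean was taken over the libraries of both groups compared. With 4, 2 and 4 such sites in OGD/R 3 h, Ncor1 reached the limit only through the other group. These shares therefore cannot show how rare the split is, and no conclusion is drawn from them. The share of Ncor1 sites with a score of at least 10 can be set beside that of all mRNA sites. Its ranges over all mRNA sites were 49.0% to 50.7%, 45.5% to 46.6% and 53.1% to 54.6%. Among the 98 genes with at least 5 sites in each control and OGD/R 3 h library, the mean log2(score + 1) was lower in every OGD/R 3 h library than in every control library for 30.6% of genes. Ncor1 was one of these, with a change of -1.22 that ranked 8 from the lowest, beside a median of -0.15 over those genes. For OGD/R 3 h against OGD/R 1.5 h the share of genes was 20.7% of 82, and Ncor1 changed by -1.13. Since 30.6% of genes had such a split, the split of Ncor1 alone does not set it apart.

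**Figure D4:**
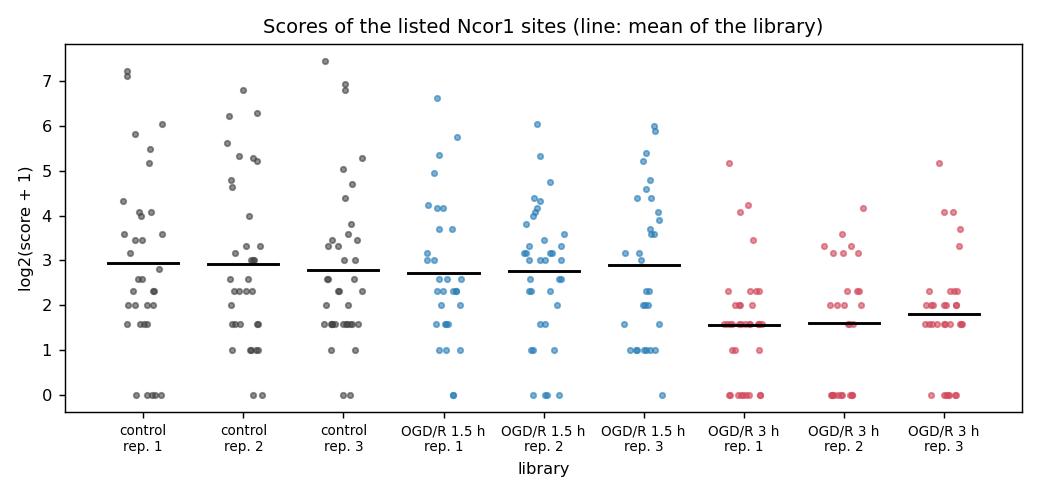
Score of each listed Ncor1 site as log2(score + 1) (y axis, points) in the 9 libraries (x axis), with the mean of the library as a line. The means of the OGD/R 3 h libraries, 1.56 to 1.80, lie below those of the control libraries, 2.78 to 2.94, and of the OGD/R 1.5 h libraries, 2.73 to 2.89.

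At single cytosines, the change of the mean log2(score + 1) was called from 1 on this scale. Of the 25 sites listed in control and after 1.5 h of OGD/R, 7 were higher and 9 lower in the latter, with a median change of -0.29, while 24.8% of all mRNA sites of these groups were higher and 26.1% lower (50.9% in all). Of the 22 sites listed in control and after 3 h, 3 were higher and 5 lower, with a median of -0.21, beside 25.2% and 31.6% (56.8% in all). Between the OGD/R groups, 3 of 25 sites were higher and 13 lower in OGD/R 3 h, with a median of -1.0, where 27.4% and 29.8% of all mRNA sites were higher and lower (57.1% in all).

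Most of these changes rested on 1 or 2 libraries. Among the 10 sites of every group, the largest rise from control to either OGD/R group was at 62340485 in exon 31. It had a score of 0 in 1 control library, 16 in 1 OGD/R 1.5 h library and 3 in 1 OGD/R 3 h library, changes of 4.09 and 2.00. The largest fall to OGD/R 1.5 h among these sites was at 62373388 in exon 19, with 11, 7 and 2 in control and 1 in 1 OGD/R 1.5 h library, a change of -1.72. The largest fall to OGD/R 3 h was at 62373088, near the 3′ end of exon 19. Its scores were 39 in 1 control library, 30, 9 and 14 in OGD/R 1.5 h and 2 in 1 OGD/R 3 h library, a change from control of -3.74. A larger fall from control to OGD/R 1.5 h, of -4.12, was at 62351448 in exon 26, named after its values were seen, with 138 in 1 control library and 7 in 1 OGD/R 1.5 h library.

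The sequence around the sites differed from that around all coding cytosines of Ncor1, which include the sites. By the bases that follow, 24 sites (17.6%) were CG, 54 (39.7%) CHG and 58 (42.6%) CHH, where H is any base but G. The cytosines of the Ncor1 coding sequence were 8.43% CG, 25.7% CHG and 65.9% CHH, and all mRNA sites were 22.4%, 37.9% and 39.6%. The contexts of the Ncor1 sites thus lay nearer to those of all mRNA sites than to those of its coding cytosines. CHH made up 40.0% of the sites of control, 41.2% after 1.5 h and 38.6% after 3 h of OGD/R. Within 10 nt on either side, purines made up 64.2% of the bases and G 33.2%, to 51.7% and 23.3% around all coding cytosines of Ncor1 and 54.3% and 24.4% around those of exons 9 to 31. The bases around all mRNA sites were 59.6% purines and 35.5% G. Many of the Ncor1 windows overlap, since 83 sites lay in runs of 5 or more. The windows printed above show such purine runs, for instance in exons 15, 19 and 26. A run of GGG directly after the cytosine was present at 1 of the 136 sites, beside 2.25% of all mRNA sites and 0.590% of the coding cytosines of Ncor1. Runs of GGG that start further on are not in that count. At the bases 2, 3 and 4 nt after the sites, G made up 41.9%, 33.8% and 37.5%. After all coding cytosines of Ncor1 it made up 27.9%, 24.1% and 24.5%.

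By codon position, 28.7% of sites were at the first, 39.7% at the second and 31.6% at the third base, where the coding cytosines of Ncor1 were 33.4%, 40.2% and 26.4%. The purine share of the exons overlapped, with 44.9% to 80.0% in the 15 exons with a site and 39.2% to 65.1% in the 8 exons without a site among exons 9 to 31. Exon 14, in which 11 of 13 cytosines were listed, had the highest share of 80.0%.

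Near-identical copies of the mRNA elsewhere in the genome were looked for. Megablast of the reference mRNA against mm10 found matches at 3 places outside the locus. A pair of adjacent matches on chromosome X, in the gene Gm6743, was 94.6% and 93.6% identical to nt 6909 to 8400 and nt 1 to 626 of the mRNA, where Ncor1 had no site. The other match, 414 nt on chromosome 6 (chr6:119425208-119425605) outside annotated genes, was 86.2% identical and covered 9 sites in exon 19. No site was listed within any of the matches. After all cytosines were turned to thymines, the 51 nt of the genome around each of the 136 sites occurred exactly once in the converted genome. Near exon ends these windows hold intron sequence, which a copy of the spliced mRNA lacks. Only exact matches were counted, so a diverged copy would be missed. The search therefore cannot show that reads of the mRNA map to a single place.

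Genes of the same pathway were taken from a list of 46 subunits, receptors and related corepressors. Besides Ncor1, 10 of 45 had a site (22.2%), where 12.1% of the 21774 protein-coding genes did. In the Ncor1 complex itself, Gps2 had 1 site with a score of 3 in control replicate 1, and the deacetylase Hdac3 and the WD-repeat subunits Tbl1x and Tbl1xr1 had none. Of the 20 nuclear receptors, 5 had a site. Thra, the thyroid hormone receptor alpha, had 37 sites, with 7, 6 and 7 in the control libraries, 9, 9 and 7 in OGD/R 1.5 h and 16, 6 and 10 in OGD/R 3 h, so its groups overlapped as those of Ncor1 did. Ppard, a receptor for fatty acids, had 3, 2 and 2 sites in the control libraries, 1, 0 and 1 in those of OGD/R 1.5 h and none after 3 h. The vitamin D receptor Vdr had 3 sites, the retinoid receptor Rxra 2 and the oxysterol receptor Nr1h2 1.

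Of the 15 other corepressors and deacetylases, 4 had a site. The NuRD complex subunit Mta2 had 4, 3 and 4 sites in the control libraries, 2, 1 and 1 in those of OGD/R 1.5 h and none after 3 h. The NuRD remodelling enzyme Chd4 had 3 sites and the highest score of the list, 262. The histone-binding protein Rbbp7 and the Rest corepressor Rcor1 had 1 site each. None of the 5 DNA-binding partners, among them Bcl6 and Rest, had a site. By group, 8, 6 and 4 of the 45 genes had a site, beside 8.42%, 8.09% and 6.71% of all protein-coding genes.

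The 3 genes whose 9 library counts, as shares of their total, were most like those of Ncor1 were Atp5a1, Lars2 and Eef2, among 193 genes with at least 20 distinct sites. The measure was the sum of the absolute differences in share, which was 0.111 for Atp5a1, 0.149 for Lars2 and 0.156 for Eef2, beside a median of 0.369. Atp5a1, a subunit of the mitochondrial ATP synthase, had 7 or 8 sites in every library. Lars2, the mitochondrial leucyl-tRNA synthetase, had 32 to 43, and 32 of its 45 sites were listed in every group. The elongation factor gene Eef2 had 79 sites, with 18, 18 and 19 in control, 14, 14 and 11 after 1.5 h of OGD/R and 21, 20 and 20 in OGD/R 3 h, and 5 of these sites were listed in every group.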

How the data were processed

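The 3 bisulfite libraries of each of the 3 groups were used, and the 9 mock libraries without bisulfite treatment were not analysed here. The authors trimmed reads with Cutadapt (1.9.3 in the submitters' processing notes, which also name CASAVA 1.8 and STAR), mapped them with meRanGh (mm10) and listed methylated cytosines by meRanCall. Their limits for a credible site were 10 in coverage and 0.1 in level. The deposited score of each site was used as given, without normalization, and depth in reads is unknown.

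Positions are counted from 1. Sites were joined by strand to exons of RefSeq transcripts on GRCm38.p6, whose coordinates are those of mm10, with Python 3.11.15 and numpy 2.4.6. Changes were computed on the log2(score + 1) scale, with a pseudocount of 1, over the libraries that list a site. The mRNA was compared with the genome by blastn 2.17.0 (megablast, word size 28). Library noise was checked on coverage of control and OGD/R 3 h, and OGD/R 1.5 h was treated the same way.

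Ncor1 and the lists were chosen with earlier results of these data known. A gene of the corepressor list is not reported here. The rule for naming genes and sites took Ncor1, list members with a site, the 3 genes most alike in library shares, sites in all 9 libraries, the 5 sites of highest mean score (0 where not listed), and sites of all groups with the largest rise and fall. Some list and marker genes without a site, Iqgap2 and a site in exon 26 were named outside this rule after their values were seen. Alternatives were other score limits, recurrence, scaling, transcripts, codon widths, summaries and leaving out each library.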

Additional observations from a re-analysis of the deposited data

How the results depend on the processing

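No paired analysis was possible because the results come from no test. The number of Ncor1 sites per library fell by 3.33 from control to OGD/R 3 h on average, within the spread of the libraries. As a share of the mRNA sites of the library, Ncor1 was lower by more than the spread of the shares (difference -0.241 percentage points). The OGD/R 3 h libraries also listed more mRNA sites. For sites with a score of at least 10 the difference was -8.33 sites per library. Asking for sites in at least 2 libraries left 32, 24 and 24 sites in the groups, control first and 3 h last, and asking for all 3 libraries left 15, 7 and 3. In control, sites with a score of at least 10 were 22.7% CG and 36.4% CHG, to 16.7% and 43.3% of all sites, and in OGD/R 3 h sites in at least 2 libraries were 29.2% CHH, to 38.6%. The average median score was 1.33 higher in OGD/R 1.5 h than in control, but the mean of log2(score + 1) was lower, with a difference of -0.088. The causes were not tested, beyond what the alternatives themselves leave out. Of 98 alternative values, 87 were counted as unchanged, among them every omission of a library that was run. The rule differed by result. Per-library values and context shares had to stay within the spread between libraries, unions of sites within 1.5 times, and region shares equal. A share of the mRNA sites was not compared with the main value, and only its own difference had to stay within its spread. For OGD/R 1.5 h minus control, 0.015 percentage points thus counted as unchanged beside -2.67 sites, though the sign differed. Means of log2(score + 1) had to keep their direction and side of 1 SD, and changes at shared sites to stay within the spread over sites. By these rules -8.33 sites counted as unchanged from -3.33, and a change of -2.09 from a median of -0.29. Only 1 site, with a change of -2.09, was listed in all libraries of control and OGD/R 1.5 h, and none was for the other pairs of groups, so those values could not be given. Depth is unknown, so a cytosine without a listing cannot be told from one that was not covered.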
